A study of Sus scrofa with 4 samples.

Results

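Aquaporin genes were examined in the sorted epidermal cells of 2 juvenile pigs, 88R and 95R. The members were the rows of the raw count table named AQP1, AQP2, AQP3, AQP4, AQP5, AQP7, AQP8, AQP9 and AQP11, which are 9 of the 29837 named genes. RNA sequencing compared LGR5-high cells, labelled LGR5-GFP+ in the deposited records, with LGR5-negative cells, labelled LGR5-GFP-, and each pig gave 1 library of each population. All 4 libraries come from pigs of the LGR5-H2B-GFP line, in which a green fluorescent histone was knocked into the first exon of LGR5 on a single allele, so the LGR5 promoter drives the sorted signal. The line was made from edited fetal fibroblasts by nuclear transfer, and whether 88R and 95R were cloned animals or their offspring is not given in the sources used here. Hair and epidermis were separated from dermis with dispase before live cells were sorted, in gates of high, low and negative GFP. The low gate was not analysed here, and the LGR5-negative gate takes live cells without GFP whatever their type. The reporter protein is diluted by cell division, so the gate reads the reporter and not LGR5 mRNA itself.

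Aquaporins are membrane channels that let water cross cell membranes. Some of them, the aquaglyceroporins AQP3, AQP7, AQP9 and AQP10, also pass glycerol, and AQP3 is known to pass hydrogen peroxide as well. In skin, AQP3 is the aquaporin of keratinocytes and supplies the epidermis with water and glycerol, whereas AQP5 is best known from secretory glands such as sweat glands and AQP1 from blood vessel endothelium and red blood cells. Of the remaining members, AQP2 is the vasopressin-regulated channel of the kidney collecting duct, AQP4 the main channel of astrocytes, AQP7 the glycerol channel of fat cells, AQP9 a channel of liver and leukocytes for small neutral solutes, and AQP11 a channel of intracellular membranes.

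Paired values are given for pig 88R first and pig 95R second throughout. The libraries held between 30696803 and 32463362 counts on named genes. A count of 3 was taken as the floor in each library and equalled between 0.0872 and 0.105 CPM, the count scaled to library size with edgeR's TMM factors. LGR5 itself was counted 4551 and 6224 times in LGR5-high and 36 and 109 times in LGR5-negative, in the direction of the sort. Every member had at least 1 count in some library. AQP1, AQP3, AQP7, AQP9 and AQP11, 5 members, were above the floor in all 4 libraries. AQP4 and AQP5, 2 members, were above it in LGR5-high only. AQP5 was above it in both LGR5-high libraries, and AQP4 only in that of pig 88R, at 4 counts. AQP2 and AQP8, another 2, were above it in none. No spliced gene length was at hand, so levels are compared between populations for 1 gene at a time and not between genes.

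**Figure D1:**
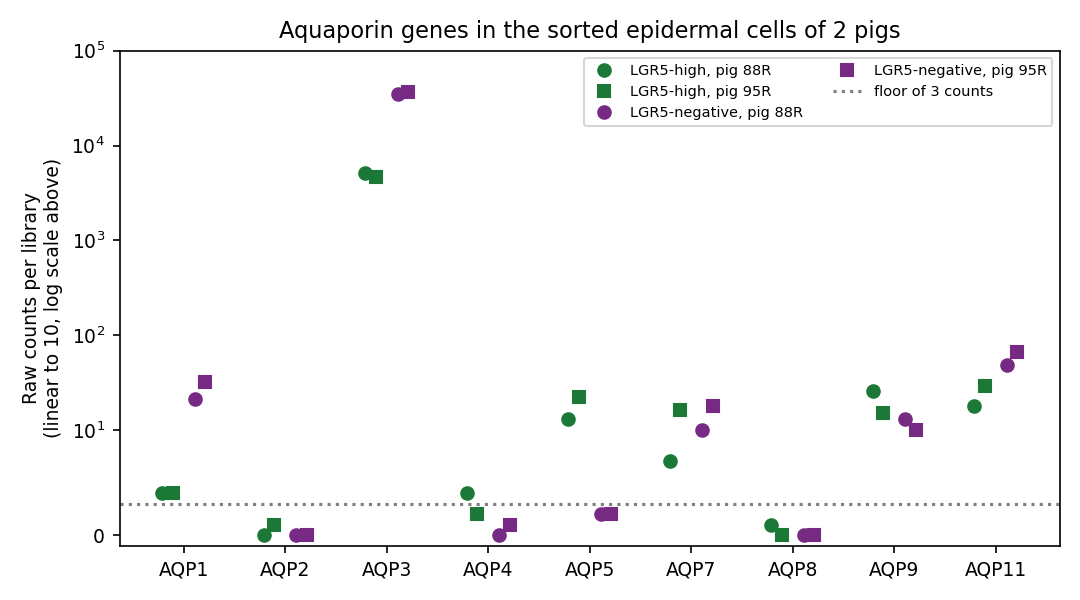
Raw counts of the 9 aquaporin genes in each library, with the count axis linear up to 10 and logarithmic above it. Circles are pig 88R, squares pig 95R, and the dotted line is the floor of 3 counts. AQP3 lies between 4639 and 36622 counts, and no other member exceeds 66 counts in any library.

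Of the 9 members, 6 passed edgeR's filter on low counts and were tested. AQP3, AQP1 and AQP11 were lower in LGR5-high cells, AQP5 was higher, and AQP7 and AQP9 were not called (edgeR quasi-likelihood test, adjusted p-value under 0.05 over all 15980 genes tested). This is 1 member higher, where 22.7% of all tested genes were higher, and 3 members lower, where 22.0% of all tested genes were lower. The median log2 fold change was -0.96 over the 6 tested members and 0.02 over all tested genes. The CPM ranges of the populations did not overlap for 4 of the 6, namely AQP1, AQP3, AQP5 and AQP11, and did not overlap for 76.6% of all tested genes. AQP5 passed the filter only through its LGR5-high libraries and AQP1 only through its LGR5-negative libraries, so these 2 had to differ to be tested at all. With the members this few and mostly low, the counts of calls do not set the family apart from other genes.

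**Figure D2:**
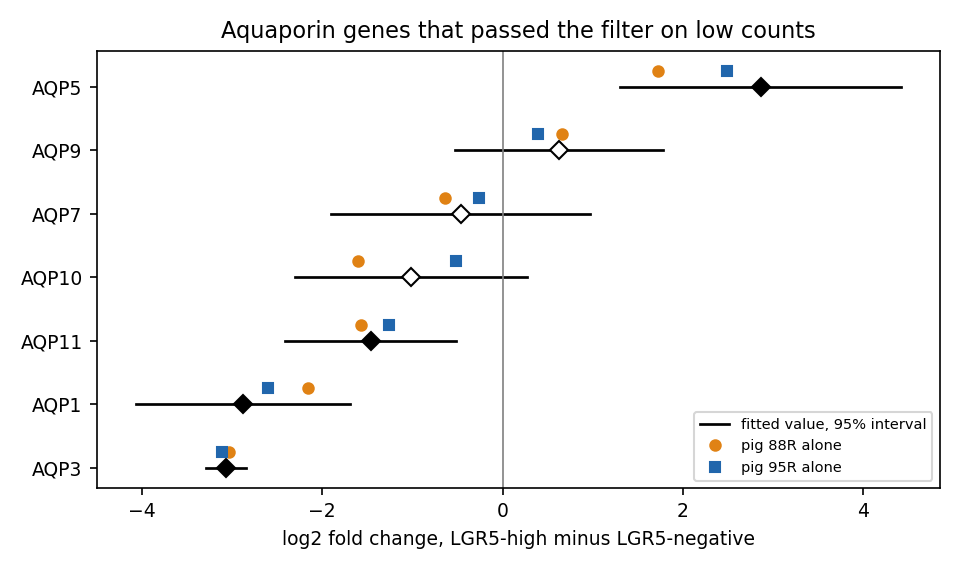
Log2 fold change of LGR5-high against LGR5-negative for the 6 tested members and AQP10. Diamonds with bars are the fitted value and its 95% interval (filled where called, open where not), and coloured points above them are each pig alone, computed with a prior count of 2 that pulls low genes toward 0. Both pigs point the same way for each of the 7 genes, and the bars of AQP7, AQP9 and AQP10 cross 0.

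AQP3, the water and glycerol channel of the keratinocyte membrane, was counted far above the floor everywhere. In LGR5-high it had 5170 and 4639 counts. In LGR5-negative it had 35078 and 36622. Both LGR5-negative libraries were thus several fold above both LGR5-high libraries, with no overlap and little difference between the pigs. In CPM, AQP3 was at 145 ± 7.04 in LGR5-high and at 1221 ± 13.5 in LGR5-negative (mean ± SD, n = 2 pigs). It fell by 3.07 on the log2 scale (95% interval -3.29 to -2.85, adjusted p = 4.09e-05 from edgeR), an 8.40-fold difference. Only 174 of the 3508 genes called lower, which is 4.96%, fell further. AQP3 stayed called under each of the 16 alternative settings, with values between -3.13 and -2.85. Among them, a prior count of 2 can alter the fold change only and repeats the p-value of the main fit. In these bulk libraries, fewer cells of a type and less RNA per cell cannot be told apart.

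AQP3 also made up nearly all aquaporin counts in every library. Its share of the 9 members' counts was 98.6% (Wilson 95% interval 98.3 to 98.9) and 98.1% (97.7 to 98.5) in LGR5-high. In LGR5-negative it was 99.73% (99.67 to 99.78) and 99.65% (99.58 to 99.70). The intervals of the populations do not overlap, and they cover counting error only. Counts on the other 8 members came to 73 and 89 in LGR5-high and to 94 and 129 in LGR5-negative. AQP3 thus accounts for the fall in the family total, from 35172 and 36751 counts in LGR5-negative to 5243 and 4728 in LGR5-high. These shares are of counts and take no account of transcript length.

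Most genes on the list of differentiated keratinocyte markers moved with AQP3. Of 14 tested markers, 11 were lower in LGR5-high (78.6%), none was higher, and their median log2 fold change was -2.43. The keratin KRT1 fell by 3.56 on the log2 scale and the transglutaminase TGM3 by 3.64. IVL, LOR and SPINK5 were not called, with log2 fold changes of -0.16, 0.20 and -0.51. The summed level of the list was 7192 and 6723 CPM in LGR5-high and 70553 and 62300 CPM in LGR5-negative. Most of that sum came from 2 keratins. In LGR5-negative, KRT1 stood at 31250 and 26741 CPM and KRT10 at 31029 and 26578 CPM. Basal keratinocyte markers moved less, with 4 of 7 lower, none higher and a median of -0.39. Hair follicle stem cell and outer root sheath markers moved the other way, with 11 of 12 higher and a median of 3.99. LGR5, whose reporter set the gates, is among these 11, so its own call follows from the sort. Over all tested genes, 22.7% were higher and 22.0% were lower. The lists were chosen with earlier results of these data known. Inner root sheath markers had 5 of 7 higher and 2 lower, namely GATA3 and TGM3, and TGM3 is in the differentiated list as well. How far the mix of keratinocyte stages in the gates contributes to AQP3 was not tested.

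Nearest profiles were sought among tested genes that are not members, leaving out symbols that start with LOC or ENSSSC. Those of ADGRF5, B3GAT1 and DSC1 were most like that of AQP3 over the 4 libraries. The distances between centred log2 CPM profiles were 0.127, 0.159 and 0.170. DSC1, a desmosomal cadherin of the upper epidermis, had 3422 and 3085 counts in LGR5-high and 24712 and 28050 in LGR5-negative. B3GAT1, a glucuronyltransferase, had 45 and 40 counts in LGR5-high and 337 and 379 in LGR5-negative. ADGRF5 had 0 counts in both LGR5-high libraries and 14 and 13 in LGR5-negative, so its nearness rests on the prior count. Likeness over so few libraries is a description of these profiles.

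The aquaglyceroporins AQP7, AQP9 and AQP10 were low in both populations. AQP7 had 7 and 16 counts in LGR5-high and 10 and 18 in LGR5-negative. The populations overlapped, and pig 95R was above pig 88R in each. The fitted log2 fold change was -0.47 (95% interval -1.90 to 0.97, adjusted p = 0.547 from edgeR). Without the LGR5-high library of pig 88R it was 0.02. In the RefSeq gene table AQP7 overlaps NFX1, and how reads of overlapping genes were counted is not given in the sources used here. Of the fat cell markers, ADIPOQ and RETN had 0 counts in all 4 libraries and PLIN1 and LEP stayed at or under the floor. The 8 markers together summed to 9.39 and 14.5 CPM in LGR5-high and to 7.997 and 7.475 CPM in LGR5-negative. CIDEA gave most of each sum, with 7.356 and 10.95 CPM in LGR5-high and 7.19 and 6.185 CPM in LGR5-negative. Of the 3 markers that could be tested only PLIN4 was called, and it passed the filter only through LGR5-high. PLIN4 had 44 and 84 counts in LGR5-high and 0 and 3 in LGR5-negative.

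AQP9 had 26 and 15 counts in LGR5-high and 13 and 10 in LGR5-negative. Scaled to CPM, the lowest LGR5-high library (0.454) lay just under the highest LGR5-negative library (0.456), so the populations overlapped. Its log2 fold change was 0.62 with a 95% interval from -0.53 to 1.77 (adjusted p = 0.320 from edgeR). The interval spans no difference and reaches further above 0 than below it. Of 10 tested macrophage and neutrophil markers, 5 were lower in LGR5-high and none was higher, but 2 of those 5 passed the filter only through LGR5-negative. CSF1R, the receptor that maintains macrophages, fell by 3.85 on the log2 scale. CD68 and CD163 were not called, with log2 fold changes of -0.86 and -0.62. PTPRC, among the 5 called lower, is also in the list of Langerhans cell markers. The summed level of the macrophage and neutrophil list was 14.1 and 14.2 CPM in LGR5-high and 101 and 57.7 CPM in LGR5-negative. MPO was at 0 throughout.

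AQP10, which is no member of the list but belongs to the same glycerol-conducting group, had 10 and 26 counts in LGR5-high and 29 and 35 in LGR5-negative. All LGR5-negative CPM values lay above all LGR5-high values. The log2 fold change of -1.01 was not called (95% interval -2.30 to 0.27, adjusted p = 0.165 from edgeR). With the pig as a replicate block it was -1.08 and called lower (adjusted p = 0.0488), in a fit that called 27.2% of all tested genes lower. This was the only one of 16 alternatives that called AQP10, and DESeq2 with the same block gave an adjusted p of 0.351. AQP6 had 0 counts in all 4 libraries, which allows up to 3 counts in each, and MIP, the lens aquaporin, had 1 count in the LGR5-high library of pig 88R and none elsewhere.

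AQP1, the water channel of endothelium and red blood cells, had 4 counts in each LGR5-high library and 21 and 32 in LGR5-negative. The LGR5-high libraries sat just above the floor, and the populations did not overlap. The mean CPM was 0.119 ± 0.00334 in LGR5-high and 0.898 ± 0.228 in LGR5-negative (SD, n = 2). With 4 counts in each LGR5-high library, the SD there reflects the scaling to library size only and leaves out counting error. AQP1 fell by 2.88 on the log2 scale (95% interval -4.07 to -1.69, adjusted p = 0.00550 from edgeR). From the 8 and 53 counts summed over the pigs, it was 7.61-fold lower in LGR5-high, with an exact 95% counting interval from 3.59 to 18.5. The call was lost without the LGR5-high library of pig 95R (adjusted p = 0.0510), in the edgeR fit, and the log2 fold change was then -2.90.

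Endothelial markers were read beside AQP1. Of 11 tested, 7 were lower in LGR5-high and 1 was higher. Like AQP1, 6 of the 11, of which 5 were called lower, had under 10 counts in both LGR5-high libraries and passed the filter only through LGR5-negative, so the count of calls is no support for a fall of the list. CDH5, the cadherin of endothelial junctions, had 1 count in each LGR5-high library and 17 and 21 in LGR5-negative, and ROBO4 had 0 in both LGR5-high libraries and 10 and 11 in LGR5-negative. The gene called higher was EGFL7, with a log2 fold change of 1.06, whose call was lost in edgeR without the LGR5-high library of pig 88R (adjusted p = 0.0571), without that of pig 95R (0.158) and without the LGR5-negative library of pig 88R (0.0879). Summed over its 12 genes the list stood at 11.6 and 13.7 CPM in LGR5-high and at 25.7 and 27.0 CPM in LGR5-negative, and no gene of it was at 0 in all libraries. Red blood cell markers gave no such pattern, since HBE1 and AHSP were at 0 throughout and none of the 7 in the table passed the filter. Their sum was 0.611 and 0.635 CPM in LGR5-high and 0.281 and 0.529 CPM in LGR5-negative. The part of endothelial cells in the AQP1 difference was not tested. ANKRD33B, RUNX3 and MFAP5 had the profiles nearest to AQP1, at distances of 0.0683, 0.0927 and 0.106. This nearness depends on the prior count of 2, which pulls low genes such as AQP1 toward 0. The fitted log2 fold change of ANKRD33B was -2.41, and MFAP5 had 1 count in each LGR5-high library and 10 and 17 in LGR5-negative.

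AQP5, the water channel of secretory cells, was the single member called higher in LGR5-high. It had 13 and 22 counts in LGR5-high and 2 in each LGR5-negative library. Both LGR5-negative libraries were under the floor of 3 counts, while both LGR5-high libraries were above it. AQP5 was at 0.378 and 0.666 CPM in LGR5-high and at 0.0702 and 0.0662 CPM in LGR5-negative. The ratio of the summed counts, 35 against 4, was 7.62, with an exact 95% counting interval from 2.73 to 29.5. The fitted log2 fold change was 2.86 (95% interval 1.31 to 4.42, adjusted p = 0.0143 from edgeR), and 1.73 and 2.49 in pigs 88R and 95R alone.

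The AQP5 call did not hold in 7 of 15 alternative settings, although the direction held in each. DESeq2 gave an adjusted p of 0.0624. In edgeR, leaving out the LGR5-high library of pig 95R gave 0.117, leaving out the LGR5-negative library of pig 88R 0.0629 and leaving out that of pig 95R 0.0653. Gland markers were mixed beside it, with 6 of 11 tested higher, 2 lower and a median log2 fold change of 1.34. KRT8 rose by 5.70, KRT19 by 3.04 and LTF, which encodes the secreted protein lactoferrin, by 2.91 on the log2 scale, while FXYD2 fell by 3.36 and KRT77 by 2.40. FOXI1 was at 0 in all 4 libraries, and the list summed to 281 and 253 CPM in LGR5-high and to 380 and 222 CPM in LGR5-negative. Keratins of this list also occur in hair follicle epithelium, and the part of gland cells in the AQP5 values was not tested. PNLIPRP3, PRKAR1B and FAXDC2 had the profiles nearest to AQP5, at distances of 0.130, 0.173 and 0.192. Their fitted log2 fold changes were 2.32, 2.22 and 2.01, under that of AQP5, whose profile the prior count of 2 pulls toward 0.

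AQP11, the channel of intracellular membranes, had 18 and 29 counts in LGR5-high and 48 and 66 in LGR5-negative. The highest LGR5-high library, at 0.877 CPM, was below the lowest LGR5-negative library, at 1.68 CPM. The means were 0.7004 ± 0.2504 and 1.933 ± 0.3531 CPM (SD, n = 2). AQP11 fell by 1.46 on the log2 scale (95% interval -2.41 to -0.52, adjusted p = 0.0258 from edgeR), a 2.76-fold difference. The exact counting interval of the ratio ran from 1.97 to 4.00. The call was lost in 6 of 16 alternative settings, among them the fits in edgeR without the LGR5-high library of pig 88R (adjusted p = 0.133), without that of pig 95R (0.0543) and without the LGR5-negative library of pig 95R (0.0860). The nearest profiles were those of ELANE, SFTPC and SDR9C7, at distances of 0.115, 0.119 and 0.128. ELANE had 5 and 9 counts in LGR5-high and 17 and 21 in LGR5-negative, and SFTPC had 26 and 39 against 63 and 96. At such counts the nearness depends in part on the prior count of 2.

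AQP2, AQP4 and AQP8 did not pass the filter and were not tested. AQP4 had 4 and 2 counts in LGR5-high and 0 and 1 in LGR5-negative, a ratio of 5.23 over the pigs with an exact 95% counting interval from 0.634 to 240.4. AQP2 had 1 count in the LGR5-high library of pig 95R and none elsewhere. AQP8 had 1 count in the LGR5-high library of pig 88R and none elsewhere. A difference between the populations was not detectable at this depth for these genes.

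Glycerol that enters through AQP3 is phosphorylated by glycerol kinase and can be built into lipids, so genes of glycerol and triglyceride handling were read beside it. Of 16 tested, 6 were lower (37.5%), 3 were higher (18.8%) and 7 were not called, with a median log2 fold change of -0.09. Over all tested genes, 22.0% were lower and 22.7% were higher, the shares to hold beside this list and those below. GK, the glycerol kinase gene, had 219 and 214 counts in LGR5-high and 644 and 656 in LGR5-negative, and it fell by 1.79 on the log2 scale (adjusted p = 2.91e-04 from edgeR). DGAT2, which makes triglycerides, had 130 and 121 counts against 839 and 755 and fell by 2.87. LPL, the lipase that frees fatty acids from circulating lipids, had 53 and 91 counts against 584 and 1050 and fell by 3.69. These genes were lower in both LGR5-high libraries, as AQP3 was.

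PGP, GPAM and GPD1 of the same list rose. PGP, a phosphatase that can release glycerol from glycerol phosphate, had 715 and 739 counts in LGR5-high and 227 and 244 in LGR5-negative and rose by 1.43 on the log2 scale. GPAM, which adds the first fatty acid to glycerol phosphate, had 2346 and 2106 counts against 933 and 836 and rose by 1.13. GPD1, the cytosolic glycerol phosphate dehydrogenase, had 199 and 233 counts against 86 and 103 and rose by 1.00, a call that edgeR lost without the LGR5-high library of pig 95R (adjusted p = 0.0943). GPD2, its mitochondrial counterpart, went the other way and fell by 0.82, and GPD1L was not called at 0.08. Sebocyte markers, which share DGAT2 with this list, had 4 of 10 tested higher and 2 lower. SCD, SOAT1, FADS2 and ACSBG1 were higher, and ELOVL4 and DGAT2 lower. The list summed to 1252 and 1180 CPM in LGR5-high and to 1328 and 1262 CPM in LGR5-negative. Most of each sum was FASN, which was not called, at 824 and 741 CPM in LGR5-high and 923 and 859 CPM in LGR5-negative.

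**Figure D3:**
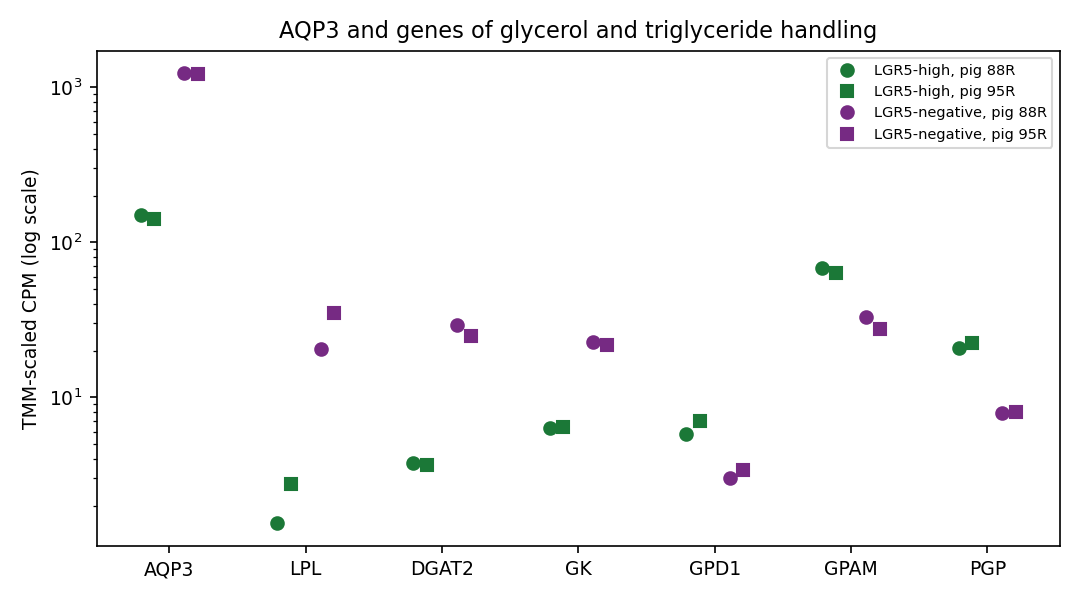
TMM-scaled CPM on a log axis of AQP3 and 6 called genes of glycerol and triglyceride handling in each library. Circles are pig 88R and squares pig 95R. AQP3, LPL, DGAT2 and GK are lower in both LGR5-high libraries, and GPD1, GPAM and PGP are higher. Heights are not comparable between genes, since they are not divided by transcript length.

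Cells also adjust their volume by moving ions and organic osmolytes, which water follows through aquaporins. Of 21 tested genes of the osmotic and cell volume response, 8 were higher (38.1%), 5 were lower (23.8%) and the median log2 fold change was 0.38. STK39, a kinase that switches on sodium, potassium and chloride uptake, had 2738 and 2669 counts in LGR5-high and 402 and 608 in LGR5-negative, and rose by 2.23 on the log2 scale (adjusted p = 3.92e-04 from edgeR). SLC12A2, the cotransporter it acts on, had 6521 and 4123 counts against 1562 and 1406 and rose by 1.63. SLC6A6, the taurine transporter, had 606 and 699 counts against 88 and 211 and rose by 1.94.

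Other genes of volume control fell in LGR5-high. LRRC8E, a subunit of the volume-regulated anion channel, fell by 1.05 on the log2 scale, from 4133 and 4030 counts in LGR5-negative to 2268 and 2272. WNK1, the kinase upstream of STK39, fell by 0.96, from 7030 and 7308 counts to 4549 and 3931. SLC38A2, an amino acid transporter induced by hypertonic stress, fell by 0.75. NFAT5, the transcription factor of the response to high salt, had a log2 fold change of -0.03 and was not called (adjusted p = 0.807 from edgeR).

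AQP3 passes hydrogen peroxide, and the enzymes that make it were read from a list of their own. Of 9 tested genes for its sources, none was higher in edgeR without the replicate block, also at an unadjusted p-value under 0.05. Of the 9, 2 were lower (22.2%), near the 22.0% of all tested genes. With the block 1 was higher and 4 were lower, in a fit that called 27.2% of all tested genes lower. SOD3, the secreted superoxide dismutase, had 54 and 89 counts in LGR5-high and 503 and 442 in LGR5-negative and fell by 2.92 on the log2 scale. SOD2, the mitochondrial dismutase, had a log2 fold change of -0.33 and lost its call in edgeR without any of the 4 libraries, with adjusted p-values between 0.0570 and 0.134. The peroxide-producing oxidases of keratinocytes, DUOX1 and DUOX2, were not called, with log2 fold changes of -0.08 and -0.80. With the replicate block in edgeR, DUOX2 was called lower (-0.76, adjusted p = 0.00478) and DUOXA1, which matures the DUOX enzymes, was called higher (0.60, adjusted p = 5.79e-04).

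Of the regulators and partners reported for AQP3 in keratinocytes, 14 were tested, 7 were lower (50.0%) and 3 were higher (21.4%), with a median log2 fold change of -0.23. PPARA, a nuclear receptor for lipids that acts in epidermal differentiation, had 390 and 347 counts in LGR5-high and 1032 and 1147 in LGR5-negative and fell by 1.76 on the log2 scale (adjusted p = 2.12e-04 from edgeR). SGK1, a kinase of salt and water transport, rose by 0.93 and TRPV4, a cation channel of cell swelling, by 0.56. The log2 fold change was -0.65 for PPARD, -0.52 for SIRT1 and 0.58 for TP73. These 3 calls were lost in edgeR without the LGR5-high library of pig 95R (adjusted p = 0.142, 0.0651 and 0.0858), that of TP73 also without the LGR5-negative library of pig 88R (0.0888) or of pig 95R (0.0628), and that of PPARD also without either library of pig 88R (0.0577 and 0.0699). SGK1, TRPV4 and NFAT5 belong to the osmotic list as well, and PLD2 to the glycerol list.

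**Figure D4:**
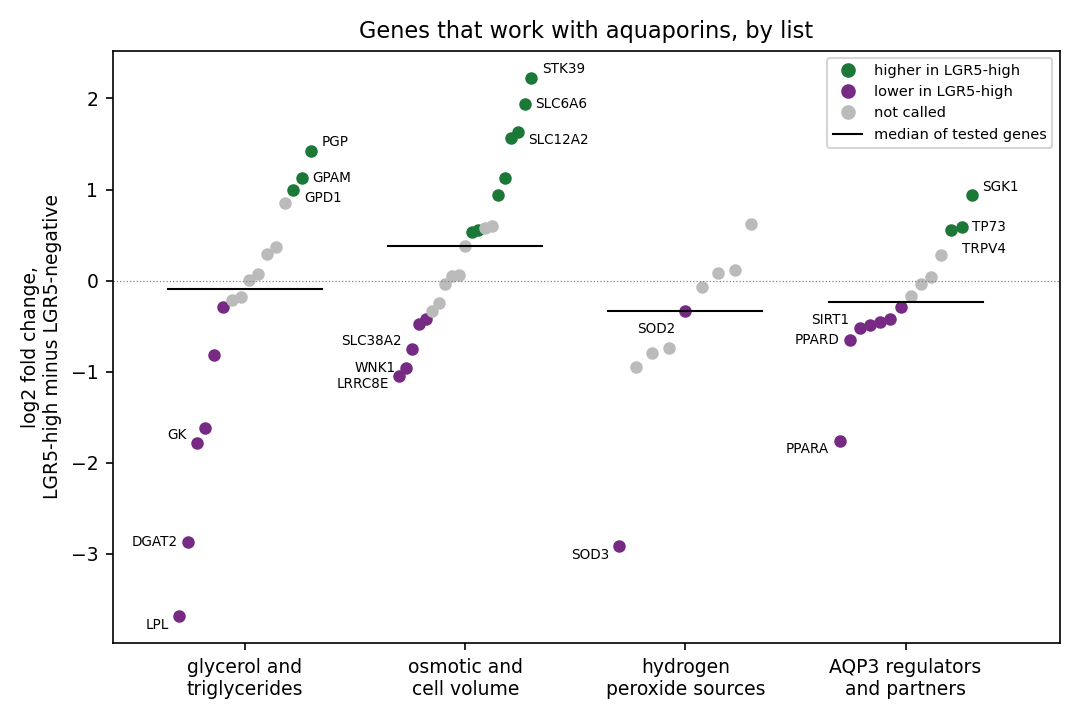
Log2 fold change of each tested gene in the 4 lists, 1 point a gene in order of value, coloured by its call, with a line at the list's median. The medians lie between -0.33 and 0.38, and the lists hold called genes in both directions except the hydrogen peroxide sources.

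Markers of other cells that the suspension could hold were read in the same way. All 4 tested Langerhans cell markers were lower, of which 3 passed the filter only through LGR5-negative, with summed levels of 7.91 and 6.08 CPM in LGR5-high and 87.2 and 127 CPM in LGR5-negative. Melanocyte markers had 5 of 8 lower and none higher, and fibroblast markers 5 of 9 lower, 2 of them tested only through LGR5-negative, and 3 higher. These lists sum to 64.5 and 64.1 CPM for melanocytes in LGR5-high against 86.7 and 263 CPM, and to 752 and 1034 CPM for fibroblasts against 417 and 260 CPM. Most of the fibroblast sum in LGR5-high comes from COL1A2 and COL1A1. COL1A2 stood at 497 and 561 CPM in LGR5-high and at 57.7 and 24.0 CPM in LGR5-negative. COL1A1 stood at 142 and 331 CPM against 94.0 and 37.2 CPM. FBLN1 was also called higher, and COL3A1, DCN, LUM, PDGFRA and DPT were called lower. The part of these cell types in the aquaporin values was not tested.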

How the data were processed

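Poly(A) RNA of LGR5-high and LGR5-negative cells of 2 pigs was sequenced in 4 libraries. The deposited table holds raw counts for each gene symbol, which the authors did not normalize. Per the submitters' processing notes, Trimmomatic 0.36, STAR 2.5.2b and featureCounts (Subread 1.5.2) were used. The genome build, annotation and strand setting are not given in the sources used here. An entry without a name, 0.360% to 0.626% of counts, was left out.

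Counts were tested in R 4.3.3 with edgeR 4.0.16: filterByExpr (minimum count 10, minimum total 15), TMM, a quasi-likelihood fit with the population as the only term and Benjamini-Hochberg adjustment over 15980 genes, called under 0.05. Fold changes use a prior count of 0.125, and those of single pigs 2. Counting intervals are 95% exact binomial and cover counting error only, as do floors. Libraries were paired by pig, which the titles name, and after subtracting each population's mean the libraries of a pig correlated at 0.370. The code was tested on simulated data.

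Members and the 18 gene lists were chosen with earlier results of these data known. All members were named. From each list, up to 3 called genes per direction with the largest change were named, plus genes that define a cell type, the 3 profiles nearest each called member (Euclidean distance of centred log2 CPM) and neighbouring genes. Symbols that start with LOC or ENSSSC were left out of the nearest profiles. NFAT5, DUOX1, DUOX2, DUOXA1, GPD2 and GPD1L were chosen after their values were seen. Alternatives were other scalings and filters, the replicate block, DESeq2 1.42.0 with and without it, limma-voom (limma 3.58.1), Student's test on log2(CPM + 1), Bonferroni adjustment, a prior count of 2 and leaving out each library. Gene order and overlaps came from the start and end positions in the RefSeq table of Sscrofa11.1, and distances between genes were not used. Plots used matplotlib 3.10.9.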

Additional observations from a re-analysis of the deposited data

How the results depend on the processing

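AQP3 kept its call and direction under all 16 alternatives. AQP1 kept its call under 12 of 15, AQP11 under 10 of 16 and AQP5 under 8 of 15. Each of these counts includes the prior count of 2, which can alter the fold change only and repeats the main call. AQP9 and AQP7 were not called under any, and the log2 fold change of AQP7 lay between -1.20 without the LGR5-high library of pig 95R and 0.0221 without that of pig 88R. AQP1, AQP5 and AQP7 have no value with at least 10 counts in every library, which leaves them out. Members called higher numbered 1 with the test reported, and 0 with at least 10 counts in every library, DESeq2, DESeq2 with the replicate block, Student's test and Bonferroni adjustment. Members called lower numbered 3, and 1 with Student's test and with Bonferroni adjustment. The genes of the 4 pathway lists called higher numbered 12, with 1 under Student's test and 0 under Bonferroni adjustment. Those called lower numbered 19, with 10 under library size only, 3 under Student's test and 1 under Bonferroni adjustment. Leaving out each library gave between 0 and 1 members higher, between 1 and 3 lower, between 9 and 13 list genes higher and between 11 and 16 lower. The causes were not tested, other than the filter. Pairing the libraries by pig as a replicate block gave 1 member higher and 3 lower, and 17 and 23 list genes. That fit called 27.2% of all tested genes lower, and its share called higher is not given here. Among the aquaporins, the block changed the call of AQP10 and of no member. Scaling by library size only moved the median of all tested genes to 0.24 and AQP3 to -2.85, and upper quartile scaling moved it to 0.11. SOD2, PPARD and SIRT1 lost their calls under library size only, and SOD2 under upper quartile scaling as well. Student's test called none of AQP1, AQP5 and AQP11, and 6391 of all genes had an unadjusted p-value under 0.05. An AQP3 share per transcript length was not run. Apart from AQP3, every member rests on 66 counts or fewer per library.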

Other observations

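The genes next to the aquaporins in the RefSeq gene order differed in how they moved. AQP3 lies between NOL6, a ribosome assembly gene, and AQP7. NOL6 had 1241 and 1094 counts in LGR5-high and 1472 and 1458 in LGR5-negative, a log2 fold change of -0.53, and lost its call in edgeR without the LGR5-high library of pig 95R (adjusted p = 0.0579). CHMP5, on the other side of AQP7, had a log2 fold change of 0.18 and was not called. AQP5 lies between AQP2 and AQP6, which had at most 1 count in any library. GHRHR, beside AQP1, had 0 counts in all 4 libraries. CLNS1A, beside AQP11 and known as a chloride channel regulator, had a log2 fold change of 0.17 and was not called.

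ZKSCAN2, a zinc finger gene beside AQP8, had 62 and 67 counts in LGR5-high and 4 and 6 in LGR5-negative, a log2 fold change of 3.46 (adjusted p = 0.00140 from edgeR), while AQP8 was at or under 1 count. ALDH1A2, a retinoic acid synthesis gene beside AQP9, had 16 and 29 counts in LGR5-high and 6 and 1 in LGR5-negative, and CHST9, a sulfotransferase gene beside AQP4, had 23 and 14 against 3 and 5. Their log2 fold changes were 2.44 and 1.98, and each lost its call in 8 of 15 alternative settings.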
